A study of Mus musculus with 6 samples.

Results

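Ubiquitin-specific proteases (USPs) are cysteine proteases that remove ubiquitin from proteins, and their transcripts were read out of RNA sequencing of mouse embryonic fibroblasts (MEFs, connective-tissue cells grown out of embryos). The members are every locus of the deposited tables with a gene symbol made of Usp and a number, Usp9y left out; the rule reads names and no measured value. This gave 48 of 53323 loci, each with a position in GENCODE M21 on the mouse build mm10. The study compared 3 libraries from MEFs with a knockout of Fbxw7 (KO replicates 1 to 3, titled as mutant) with 3 libraries from wild-type MEFs (WT replicates 1 to 3). All 6 libraries came from total RNA of cells grown in DMEM with 15% fetal bovine serum and 1% non-essential amino acids. The sources used here do not give the strain, the age of the embryos, how the gene was deleted, or whether replicates were separate embryos, isolates or dishes, so the p-values measure only the spread between these libraries, which may be technical.

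FBXW7 is the F-box protein that brings phosphorylated MYC, cyclin E, JUN, NOTCH and MCL1 to a cullin-RING ubiquitin ligase, so that they are degraded. USPs act on the other side of this balance: they take ubiquitin off again, and each of them has its own substrates. USP28 is the best known opponent of FBXW7, since it removes ubiquitin from MYC and other FBXW7 substrates, and in human cells it reaches MYC by binding FBXW7 itself. Other members serve DNA repair, histones, the proteasome, endosomes or splicing.

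The catalytic site of the family lies in a short conserved stretch called the Cys box. It is shown here for the 9 members whose transcripts differed between the genotypes and for the paralogs (related genes of common origin) of 3 of them, because the family can be read from it. Each line gives 36 coding bases, 5′ to 3′ on the strand of the gene, from GENCODE M21 transcripts on mm10. The capitals mark the codon at the position of the catalytic cysteine.
Usp28 (exon 5, chr9:49003959-49003961 for the codon, + strand): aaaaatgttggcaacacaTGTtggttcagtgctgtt
Usp25 (exon 5, chr16:77050537-77050539, + strand): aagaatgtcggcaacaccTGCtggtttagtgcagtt
Usp12 (exon 3, chr5:146763400-146763402, - strand): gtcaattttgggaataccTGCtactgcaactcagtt
Usp46 (exon 3, chr5:74032503-74032505, - strand): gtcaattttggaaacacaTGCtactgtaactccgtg
Usp53 (exon 2, chr3:122968610-122968612, - strand): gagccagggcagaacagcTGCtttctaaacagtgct
Usp54 (exon 2, chr14:20607103-20607105, - strand): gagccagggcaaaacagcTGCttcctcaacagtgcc
Usp11 (exon 7, chrX:20713373-20713375, + strand): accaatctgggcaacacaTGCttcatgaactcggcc
Usp34 (exon 43, chr11:23426724-23426726, + strand): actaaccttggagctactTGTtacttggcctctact
Usp32 (exon 20, chr11:85027190-85027192, - strand): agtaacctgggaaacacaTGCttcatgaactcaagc
Usp40 (exon 2, chr1:88007274-88007276, - strand): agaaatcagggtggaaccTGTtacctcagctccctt
Usp39 (exon 5, chr6:72337723-72337725, - strand): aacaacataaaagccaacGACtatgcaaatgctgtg
A cysteine codon stood at this position in 47 of the 48 members, TGT in 21 and TGC in 26. Usp39, which encodes a splicing factor with a USP fold and no protease activity, has GAC there. Usp28 and Usp25 share 30 of the 36 bases, Usp12 and Usp46 share 30, and Usp54 and Usp53 share 32, against a median of 22 over the 1128 pairs of members.

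The deposited counts, which had been scaled library by library, summed to 55720129 to 60402238 for KO and 62551369 to 64198455 for WT. With that scaling taken out, the totals were 57728125, 60332862 and 70625728 for KO replicates 1 to 3. For WT replicates 1 to 3 they were 66070343, 51152333 and 57960333. Levels are given as CPM (counts brought to one library total with the TMM factors of edgeR) or as FPKM (the authors' deposited values, which also correct for transcript length). Replicates 1 and 2 of each genotype were close, with a median chi-square of 6.56 times the sampling noise in KO and 7.42 times in WT, while replicate 3 lay 31.6 to 42.6 times apart from the other KO libraries and 26.7 to 29.6 times apart from the other WT libraries. The Fbxw7 transcript itself had 27.6, 27.4 and 24.1 CPM in KO libraries and 29.5, 28.4 and 30.1 CPM in WT libraries (log2 fold change -0.16 ± 0.099 (SE), adjusted p = 0.332). The groups do not overlap, but the test does not separate them. The labels do not say which exons the knockout removed, and a value over the whole locus does not check it, so KO means the libraries labelled so. Xist, the non-coding RNA of the inactive X, averaged 911 ± 126 CPM in KO and 1.47 ± 1.09 CPM in WT (SD, n = 3 each, in a locus shared with another gene), and the Y-linked Ddx3y averaged 30.4 ± 6.01 CPM in KO and 95.9 ± 13.8 CPM in WT. Every KO library held both Xist (798 to 1050 CPM) and Ddx3y (24.0 to 35.9 CPM), so the groups are not simply of opposite sex. Whether the KO libraries mix female and male cells was not tested. The sex of the cells and the genotype cannot be told apart in this design. Markers of fibroblasts were abundant in all libraries, with a summed 23100 to 25200 CPM in KO and 23400 to 31700 CPM in WT over 8 genes, most of it Col1a1 and Col1a2. Among these 8, Dcn rose (log2 fold change 1.56, adjusted p = 0.0252) and Vim fell (-0.83, adjusted p = 0.00972). Of the other cell types, 5 endothelial markers summed to 0.614 to 1.42 CPM in KO and 6.46 to 9.27 CPM in WT, with Kdr and Tek as nearly all of it and Pecam1, Cdh5 and Emcn at or near 0. The neural markers, 3 of 4 with a locus of that name, summed to 7.52 to 17.6 CPM in KO and 22.2 to 26.4 CPM in WT, most of it Map2, with Sox10 at or near 0. The 5 macrophage markers summed to 7.22 to 8.21 CPM in KO and 6.07 to 6.85 CPM in WT, most of it Cd14. Cd68 fell (-1.40, adjusted p = 0.0299) at a low level, with a mean of 0.448 CPM in KO and 1.19 CPM in WT. Csf1r (0.15, adjusted p = 0.838) and Cd14 (0.53, adjusted p = 0.056) pointed the other way and did not pass. Adgre1 was at 0 in all libraries. The 3 adipocyte markers summed to 0.515 to 1.13 CPM in KO and 1.65 to 3.03 CPM in WT, and the 5 epithelial and 4 skeletal muscle markers each summed to under 1 CPM in every library. The part of these differences in the results on USPs was not tested.

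Of the 48 USP loci, 44 passed the filter on low counts and 9 differed between the genotypes at an adjusted p under 0.05 (edgeR quasi-likelihood test, Benjamini-Hochberg over 16787 loci). That is 20.5% of the members tested, where 16.1% of all loci tested passed, so the share is near that of the whole table. Usp11, Usp28, Usp12, Usp39 and Usp40 rose in KO (11.4% of members, 8.03% of all loci), and Usp25, Usp53, Usp34 and Usp32 fell (9.09% of members, 8.08% of all loci). None of the 9 changed by as much as 2-fold, whereas 47.9% of all loci that passed did. These loci were not matched to the members for expression level, so no trait of the family is read from this. The median log2 fold change was 0.092 over the 44 members and 0.007 over all loci. The count rested on the libraries. It was 3 without KO replicate 1 (6.79% of all loci passed) and 4 without KO replicate 2 (8.5%), and again 3 with WT replicate 1 left out (7.56%) and 4 with WT replicate 2 left out (7.39%). It was 12 without KO replicate 3 (19.1%) and 8 without WT replicate 3 (18.5%). Scaled by library size alone, 7 members rose and 2 fell (17.8% of all loci passed), and in limma on log2(FPKM + 1) with no filter on low values 1 member fell and 0 rose (4.28% of all loci). With a mean of at least 1 FPKM required, 2 rose and 4 fell (11.9% of all loci): Usp28, Usp39, Usp32 and Usp40 did not pass and Usp9x did. Usp25, Usp53 and Usp28 passed with each of the 6 libraries left out in turn. Since these are bulk samples, fewer cells of a type and less RNA per cell cannot be told apart for any member.

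**Figure D1:**
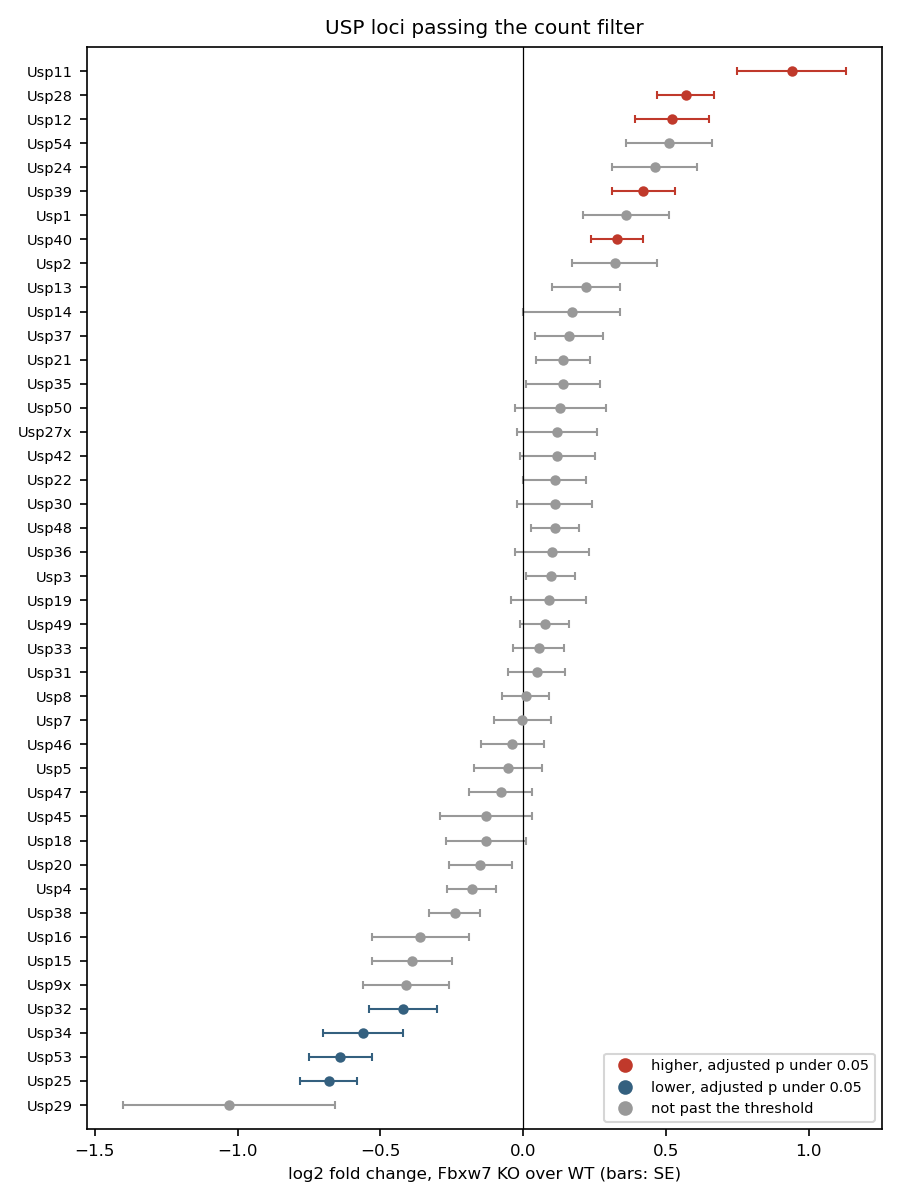
Log2 fold change (KO over WT) of the 44 USP loci tested, with bars for the standard error; red marks the 5 that rose, blue the 4 that fell and grey the rest. Usp11 has the highest value (0.94) and Usp29, which did not pass, the lowest (-1.03).

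Of 7 tested members placed in a group for the stability of FBXW7 substrates, 1 rose and 1 fell, where 16.1% of all loci passed. Usp28, which deubiquitinates MYC, had 30.2, 29.0 and 32.6 CPM in KO libraries, against 20.6, 21.8 and 19.6 CPM in WT libraries. Every KO library lay above every WT library. Usp28 (chr9:48985375-49042517, + strand) rose by a log2 fold change of 0.57 ± 0.10 (SE, adjusted p = 0.00952), to 148% of WT. Its closest paralog Usp25 (chr16:77013706-77116780, + strand) had 62.5, 53.2 and 65.7 CPM in KO libraries, against 97.2, 101 and 92.2 CPM in WT libraries, and fell to 62.5% of WT (log2 fold change -0.68 ± 0.10, adjusted p = 0.00531). Again the groups did not overlap. Usp25 is the member with the smallest adjusted p in the family. Leaving out single libraries gave adjusted p-values of 0.0142 to 0.0495 for Usp28 and 0.00377 to 0.0287 for Usp25. On the deposited FPKM the rise of Usp28 was smaller, and its call depended on the setting. With a mean of at least 1 FPKM required, limma on log2(FPKM + 1) gave 0.35 with an adjusted p of 0.0515, which did not pass. At a pseudocount of 0.1 it gave 0.38 with an adjusted p of 0.0494, which passed. With a pseudocount of 1 and no filter on low values the adjusted p was 0.0833.

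For this pair, whose transcripts moved in opposite directions, the DNA around the RefSeq (GRCm38.p6) start of each gene is shown. Each window has 300 bases, from 250 before to 50 after that start, on the strand of the gene. Capitals mark GC boxes (GGGCGG), E-boxes (CACGTG), the CCAAT box and the TATAA motif, each searched on both strands; neighbouring GC boxes may touch.
Usp28 (chr9:48985135-48985434, + strand): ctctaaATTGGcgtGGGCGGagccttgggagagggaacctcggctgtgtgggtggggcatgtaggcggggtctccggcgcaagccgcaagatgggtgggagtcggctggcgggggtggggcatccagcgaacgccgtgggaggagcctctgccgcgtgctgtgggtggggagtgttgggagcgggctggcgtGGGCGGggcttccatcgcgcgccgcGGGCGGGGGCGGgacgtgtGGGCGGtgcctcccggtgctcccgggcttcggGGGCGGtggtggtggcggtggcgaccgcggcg
Usp25 (chr16:77013819-77014118, + strand): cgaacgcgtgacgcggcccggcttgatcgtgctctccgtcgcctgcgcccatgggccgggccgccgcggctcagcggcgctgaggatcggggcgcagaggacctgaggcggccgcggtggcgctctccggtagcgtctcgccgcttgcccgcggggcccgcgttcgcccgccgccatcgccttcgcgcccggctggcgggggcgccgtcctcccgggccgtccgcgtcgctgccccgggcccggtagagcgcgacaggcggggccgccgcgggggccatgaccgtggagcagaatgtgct
The Usp28 window held 6 GC boxes and 1 CCAAT box, and the Usp25 window none of the 4 motifs. The Usp25 window, however, begins at 77013819, inside the gene, whose start in GENCODE is 77013706. The Usp28 window spans its GENCODE start. The windows are therefore unlike regions, and their motif counts do not compare the promoters of the pair. G and C made up 74.7% of the Usp28 window and 79.0% of the Usp25 window. Of the 36 members with an entry, 72.2% held a GC box, against 35.7% of all 32851 promoters, 11.1% held an E-box (7.15% of all), 25.0% a CCAAT box (37.4% of all) and 8.33% a TATAA motif (24.9% of all). Their median G and C content was 65.7%, against 52.7% over all promoters. Usp25 is not the only member with a window inside its GENCODE gene: those of Usp2, Usp7, Usp30, Usp37 and Usp54 lie there too. The shares therefore describe windows at RefSeq starts, which need not be the starts used in these cells. Among the other members that passed, the windows held 6 GC boxes for Usp12 and 0 for Usp11 and Usp40, which rose, and 7 for Usp32 and 5 for Usp34, which fell; Usp39 and Usp53 had no entry.

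The other 5 members of that group did not pass. Usp9x, an X-linked gene whose product protects MCL1, had 201, 156 and 227 CPM in KO libraries and 271, 272 and 233 CPM in WT libraries (log2 fold change -0.41 ± 0.15, adjusted p = 0.101). All KO libraries were lower, but the third replicates were close, and without KO replicate 3 the value was -0.54 with an adjusted p of 0.0317. Usp9x did not pass with any other library left out (adjusted p 0.0739 to 0.249). Usp36, a nucleolar protease that acts on MYC, had 44.3, 42.9 and 33.9 CPM in KO libraries and 34.6, 36.1 and 42.0 CPM in WT libraries: KO was higher in replicates 1 and 2 and lower in replicate 3. Usp37, which acts on cyclin A and MYC, averaged 26.9 ± 3.65 CPM in KO and 24.0 ± 1.06 CPM in WT (adjusted p = 0.419). Usp22, the protease of the SAGA coactivator complex, averaged 182 ± 15.2 CPM in KO and 168 ± 13.4 CPM in WT (adjusted p = 0.506). The same module can work with USP27X, whose X-linked gene Usp27x averaged 13.4 ± 1.02 CPM in KO and 12.3 ± 1.70 CPM in WT (adjusted p = 0.598; SD, n = 3 each).

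Of 5 members tested with roles in DNA repair and replication, Usp11 rose. USP11 takes ubiquitin off repair proteins such as BRCA2 and PALB2 and serves homologous recombination. Usp11 (chrX:20703906-20720539, + strand) had 42.2, 43.1 and 39.1 CPM in KO libraries, against 22.4, 26.9 and 15.7 CPM in WT libraries. The groups were far apart, and the spread lay mostly in WT. Its log2 fold change was 0.94 ± 0.19 (adjusted p = 0.0144), but the adjusted p was 0.0535 without KO replicate 1 and 0.0552 without WT replicate 1. The other X-linked members tested, Usp9x and Usp27x, did not pass. With chromosomes X and Y left out of the fit, 7 of 41 members and 16.1% of all loci passed. That fit leaves out Usp11 itself and so says nothing on it. The part of the sex of the cells in the rise of Usp11 was not tested. Usp1, which acts on PCNA and FANCD2, averaged 31.6 ± 4.91 CPM in KO and 24.7 ± 2.99 CPM in WT (log2 fold change 0.36 ± 0.15, adjusted p = 0.140). Usp48, Usp45 and Usp47 had log2 fold changes of 0.11, -0.13 and -0.079, none past the threshold.

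**Figure D2:**
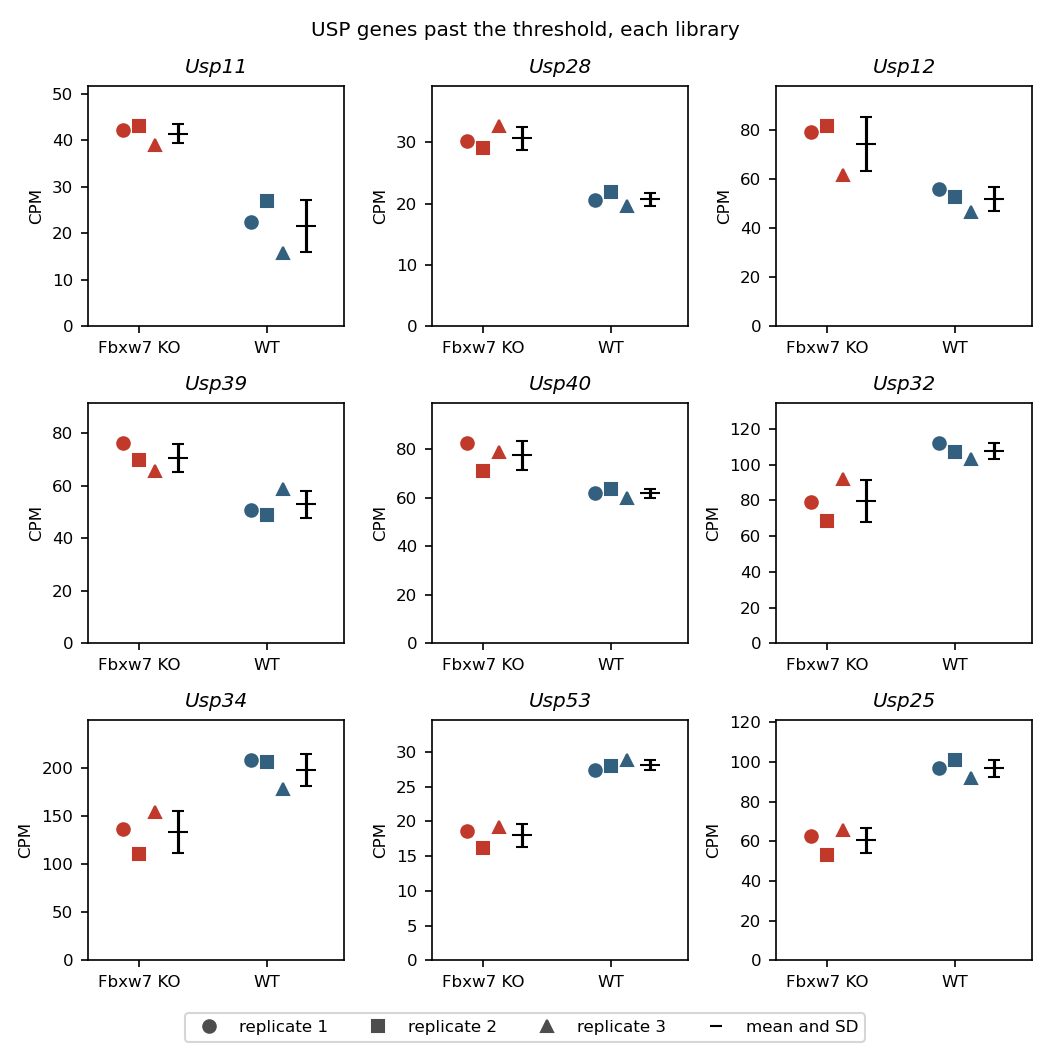
CPM of the 9 members that differed, in each library (symbols mark the replicate, the cross and bar the mean and SD of 3 libraries; axes start at 0). The KO libraries of Usp11, Usp28, Usp12, Usp39 and Usp40 all lie above the WT libraries, and those of Usp32, Usp34, Usp53 and Usp25 all below.

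USP12 and USP46 are near-identical enzymes that need the WD-repeat protein UAF1 (gene Wdr48) to be active. Usp12 (chr5:146734809-146795006, - strand) had 79.2, 81.5 and 61.4 CPM in KO libraries, against 56.1, 52.5 and 46.5 CPM in WT libraries. The groups did not overlap, with KO replicate 3 nearest to WT. Usp12 rose by a log2 fold change of 0.52 ± 0.13 (adjusted p = 0.0358). Usp46 averaged 57.3 ± 5.03 CPM in KO and 58.9 ± 4.72 CPM in WT (log2 fold change -0.038 ± 0.11, adjusted p = 0.841), in a locus with antisense transcripts on the other strand. Wdr48 averaged 99.9 ± 9.76 CPM in KO and 89.5 ± 3.28 CPM in WT (adjusted p = 0.320). The call on Usp12 held only without KO replicate 3 (0.63, adjusted p = 0.00630): the adjusted p was 0.133 without KO replicate 1, 0.110 without KO replicate 2, 0.0761, 0.107 and 0.0689 with WT replicate 1, 2 or 3 left out.

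Of the 4 tested members with no or uncertain protease activity, Usp39 rose and Usp53 fell. USP39 is a part of the spliceosome's tri-snRNP. Usp39 (chr6:72318678-72345184, - strand) had 76.2, 69.9 and 65.4 CPM in KO libraries, against 50.9, 49.0 and 58.7 CPM in WT libraries (log2 fold change 0.42 ± 0.11, adjusted p = 0.0362). No KO library reached down to WT, but the gap was small in replicate 3. The adjusted p was 0.165 without KO replicate 1, 0.103 without KO replicate 2, 0.135 without WT replicate 1 and 0.133 without WT replicate 2. Usp53, which encodes a protein of tight junctions long regarded as inactive, lies at chr3:122931493-122984510 on the - strand. It had 18.6, 16.1 and 19.2 CPM in KO libraries, against 27.4, 27.9 and 28.8 CPM in WT libraries. The WT libraries lay close together and every KO library was lower, at 64.1% of WT on the fitted scale (log2 fold change -0.64 ± 0.11, adjusted p = 0.00749). Its paralog Usp54 pointed the other way, with 22.5, 19.8 and 26.1 CPM in KO libraries and 14.6, 15.0 and 18.6 CPM in WT libraries. The groups of Usp54 did not overlap, but its log2 fold change of 0.51 ± 0.15 missed the threshold (adjusted p = 0.0564) and passed without WT replicate 3 (0.62, adjusted p = 0.0254). It did not pass with any other library left out (adjusted p 0.0734 to 0.186). An antisense transcript overlaps 21776 bases of Usp54. Usp50, in a locus shared with a pseudogene and overlapping Usp8 on the other strand, had a log2 fold change of 0.13.

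Balance within paralog pairs was compared in 11 pairs, as the ratio of their CPM in each library. The Usp28 to Usp25 ratio was 0.483, 0.545 and 0.496 in KO libraries, against 0.212, 0.216 and 0.213 in WT libraries. Usp25 was the more abundant of the pair in all 6 libraries by fragment number, and the ratio differed by 1.25 on the log2 scale (mean log2 ratio -0.98 ± 0.091 in KO and -2.23 ± 0.014 in WT, SD, n = 3 each), or by 1.11 from FPKM. For Usp54 to Usp53 it was 1.21, 1.23 and 1.36 in KO libraries, against 0.533, 0.538 and 0.646 in WT libraries. These are ratios of fragments, not of levels. Per length, Usp54 had 3.16, 3.03 and 3.80 FPKM and Usp53 3.29, 2.65 and 3.13 FPKM in KO libraries, so Usp54 was the lower of the pair in KO replicate 1. In WT libraries Usp54 had 2.19, 2.15 and 2.74 FPKM and Usp53 4.61, 4.63 and 5.02 FPKM. The Usp12 to Usp46 ratio was 1.52, 1.41 and 0.987 in KO libraries, against 0.902, 0.861 and 0.869 in WT libraries. The ratio of Usp11 to its paralogs was also higher in every KO library, by 1.38 on the log2 scale for Usp15 and by 1.15 for Usp4. The groups did not overlap in 8 of the 11 pairs, some of which share a member; for comparison, 37.7% of single loci did not overlap, and no such share was computed for pairs. Each of these 8 had an exact two-sided permutation p of 0.1, the smallest that 3 against 3 libraries allow (0.138 after Benjamini-Hochberg adjustment over the 11 pairs). No pair could therefore pass. The ratio overlapped for Usp4 to Usp15 (p = 0.3), Usp20 to Usp33 (p = 0.2) and Usp27x to Usp22 (p = 1.0), by the same exact permutation test. The log2 fold changes of the members were known when the pairs were set. Ratios with Usp28, Usp25, Usp12, Usp53 or Usp11, which passed by themselves, are another view of the same values and not a further result.

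**Figure D3:**
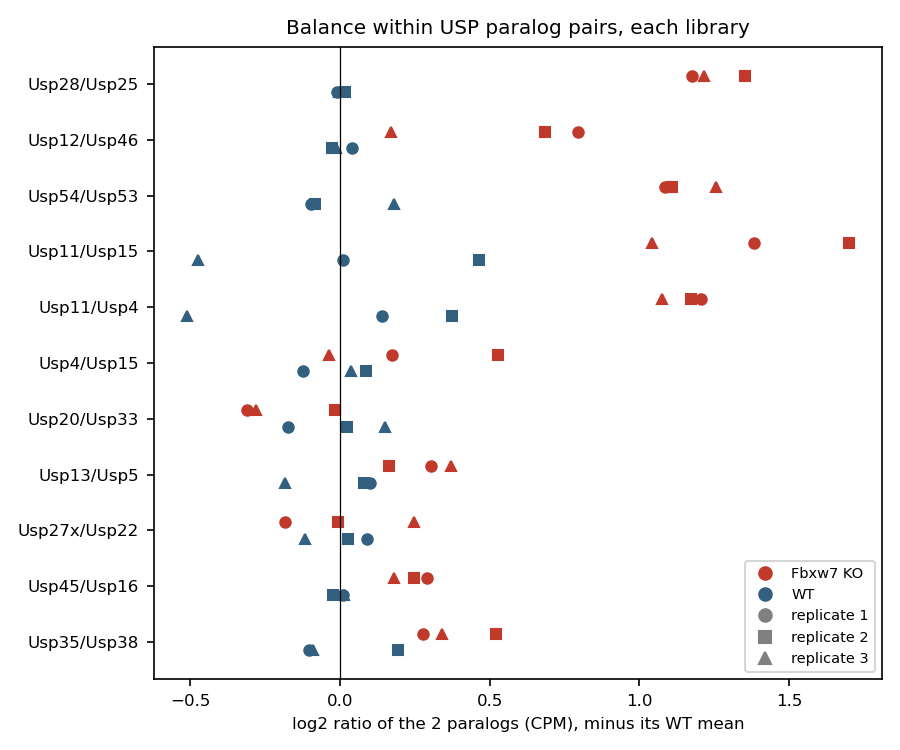
Log2 ratio of CPM within 11 USP paralog pairs in each library, minus the mean of the WT libraries (KO red, upper row of each pair; WT blue, lower row; symbols mark replicates). KO libraries stand to the right of all WT libraries for Usp28/Usp25, Usp54/Usp53, Usp11/Usp15 and Usp11/Usp4, by 1.15 to 1.38 on average.

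Of 6 tested members of endosomes, the endoplasmic reticulum and mitochondria, 1 passed: Usp32, a membrane-bound protease of the Golgi and endosomes, fell. Usp32 (chr11:84984442-85140161, - strand) had 79.0, 68.6 and 92.0 CPM in KO libraries, against 112, 107 and 103 CPM in WT libraries. The groups did not overlap, and the log2 fold change of -0.42 ± 0.12 lay just inside the threshold (adjusted p = 0.0490). Its adjusted p was 0.154 without KO replicate 1 and 0.125 without KO replicate 2. It was 0.154, 0.129 and 0.0544 with WT replicate 1, 2 or 3 left out. The processed pseudogenes Gm11440, Gm11439 and Rpl13-ps1 overlap Usp32 on its own strand, over 527, 409 and 668 bases. Their part in its counts was not tested. The other 5 members of this group did not pass: the log2 fold change was 0.0088 for Usp8 (endosomal sorting), 0.089 for Usp19 (endoplasmic reticulum), 0.11 for Usp30 (outer mitochondrial membrane), -0.15 for Usp20 and 0.054 for Usp33.

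Usp34 and Usp40 stand outside these groups. USP34 is a very large protease that acts on axin in Wnt signalling. Usp34 (chr11:23306895-23490560, + strand) had 136, 110 and 154 CPM in KO libraries, against 208, 206 and 178 CPM in WT libraries. All KO libraries were lower, with replicate 3 of both genotypes nearest to each other, and the log2 fold change was -0.56 ± 0.14 (adjusted p = 0.0301). The adjusted p was 0.0964 without KO replicate 1, 0.0717 without KO replicate 2, 0.107 without WT replicate 1 and 0.103 without WT replicate 2. Usp34 overlaps Ahsa2 on the other strand over 2679 bases, and no source used here says whether reads were counted by strand. Other members, among them Usp2, Usp30 and Usp37, also overlap protein-coding genes on the other strand. Usp40 (chr1:87945119-88008551, - strand) had 82.5, 70.9 and 79.0 CPM in KO libraries, against 62.0, 63.7 and 59.8 CPM in WT libraries. It rose by the least of the 5 (log2 fold change 0.33 ± 0.091, adjusted p = 0.0491), and with any 1 library left out it no longer passed: 0.203 without KO replicate 1, 0.0575 without KO replicate 2, 0.0658 without KO replicate 3, and 0.150, 0.118 and 0.0786 with WT replicate 1, 2 or 3 left out. Usp29, an imprinted gene of the Peg3 domain expressed from the paternal copy, was the lowest of those tested, with 1.24, 1.31 and 0.648 CPM in KO libraries and 2.81, 2.44 and 1.31 CPM in WT libraries. WT replicate 3 and KO replicate 2 met at the same level, and the log2 fold change of -1.03 ± 0.37 did not pass (adjusted p = 0.0997). It did without WT replicate 3 (-1.30, adjusted p = 0.0330), but not with any other library left out (adjusted p 0.137 to 0.280). Usp38, Usp35 and Usp31 had log2 fold changes of -0.24, 0.14 and 0.047, none past the threshold.

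None of the 5 tested members around p53, MDM2 and the cell cycle passed. Usp24 came nearest, with 210, 184 and 139 CPM in KO libraries and 126, 131 and 131 CPM in WT libraries (log2 fold change 0.46 ± 0.15, adjusted p = 0.0716). Every KO library was above WT, replicate 3 only slightly, and without KO replicate 3 the value was 0.60 with an adjusted p of 0.00582. With any other library left out Usp24 did not pass (adjusted p 0.104 to 0.242). Usp7, which keeps both MDM2 and p53 stable, had 114, 106 and 129 CPM in KO libraries and 114, 111 and 124 CPM in WT libraries. These values overlap throughout (log2 fold change -0.0036 ± 0.10). Usp2, a clock-controlled gene whose product stabilises cyclin D1, averaged 10.8 ± 0.939 CPM in KO and 8.64 ± 1.27 CPM in WT (adjusted p = 0.182). Usp42 had a log2 fold change of 0.12, and Usp5, which takes apart unanchored ubiquitin chains, one of -0.053.

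The 4 tested loci of histone deubiquitinases did not pass, with a median log2 fold change of 0.085. Usp16, which acts on H2A, had 51.5, 46.2 and 74.5 CPM in KO libraries and 77.9, 71.5 and 72.1 CPM in WT libraries. KO replicate 3 lay within the WT values and the other KO libraries far below. With all libraries the adjusted p was 0.196, and without KO replicate 3 the log2 fold change was -0.60 with an adjusted p of 0.00647. Usp16 did not pass with any other library left out (adjusted p 0.224 to 0.436). Usp21 and the shared loci of Usp3 and Usp49 had log2 fold changes of 0.14, 0.096 and 0.075. Usp14, which trims chains from substrates bound at the proteasome, averaged 112 ± 22.2 CPM in KO and 99.6 ± 15.4 CPM in WT (log2 fold change 0.17). Usp13, placed with it in a group for the proteasome and free ubiquitin, had a log2 fold change of 0.22. Usp4 and the locus of Usp15, whose products act in TGF-beta signalling, did not pass. Usp4 had a log2 fold change of -0.18 ± 0.085 (adjusted p = 0.186) and the Usp15 locus one of -0.39 ± 0.14 (adjusted p = 0.0932). The Usp15 locus passed without KO replicate 3 (-0.53, adjusted p = 0.0227), but not with any other library left out (adjusted p 0.141 to 0.239).

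Usp18, the protease that removes the ubiquitin-like ISG15 and restrains interferon signalling, had 155, 172 and 137 CPM in KO libraries and 162, 148 and 198 CPM in WT libraries. The groups overlap, with KO above WT in replicate 2 only (log2 fold change -0.13 ± 0.14, adjusted p = 0.548). Its substrate Isg15 averaged 302 ± 58.8 CPM in KO and 297 ± 8.94 CPM in WT (adjusted p = 0.942). Of 16 interferon-induced genes, 1 rose and 3 fell, where 16.1% of all loci passed. Oas2 fell (log2 fold change -1.13, adjusted p = 0.0109), Mx2 rose (0.43, adjusted p = 0.0205), and Ifi44 (-1.02, adjusted p = 0.0238) and Irf7 (-1.31, adjusted p = 0.0381) fell.

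Levels of different genes can be compared only per length. By FPKM, Usp18 was the most abundant USP with a locus of its own, at 91.2 ± 11.5 FPKM in KO and 104 ± 16.9 FPKM in WT. Usp5 followed at 56.5 ± 8.09 FPKM in KO and 59.6 ± 6.92 FPKM in WT. Then came Usp4 (45.3 ± 1.87 FPKM in KO and 51.9 ± 2.03 FPKM in WT), Usp47 (43.5 ± 5.21 FPKM in KO and 47.7 ± 2.12 FPKM in WT), Usp14 (49.3 ± 9.43 FPKM in KO and 45.1 ± 7.45 FPKM in WT) and Usp19 (45.0 ± 7.78 FPKM in KO and 42.3 ± 0.828 FPKM in WT), whose order differs between the genotypes. Of 44 members with a locus of their own, 39 reached 1 FPKM in each genotype, and 24 in KO and 23 in WT reached 10 FPKM. Usp28 was below that level, at 9.55 ± 0.416 FPKM in KO and 7.29 ± 0.252 FPKM in WT, and Usp25 stood at 12.0 ± 1.01 FPKM in KO and 19.7 ± 0.532 FPKM in WT. Usp26, Usp43, Usp44 and Usp51 fell below the count filter, with a deposited count of at most 10 and at most 0.163 CPM in any library. Summed over the 48 loci, USP transcripts made up 3416, 3221 and 3355 CPM in KO libraries and 3422, 3418 and 3424 CPM in WT libraries.

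**Figure D4:**
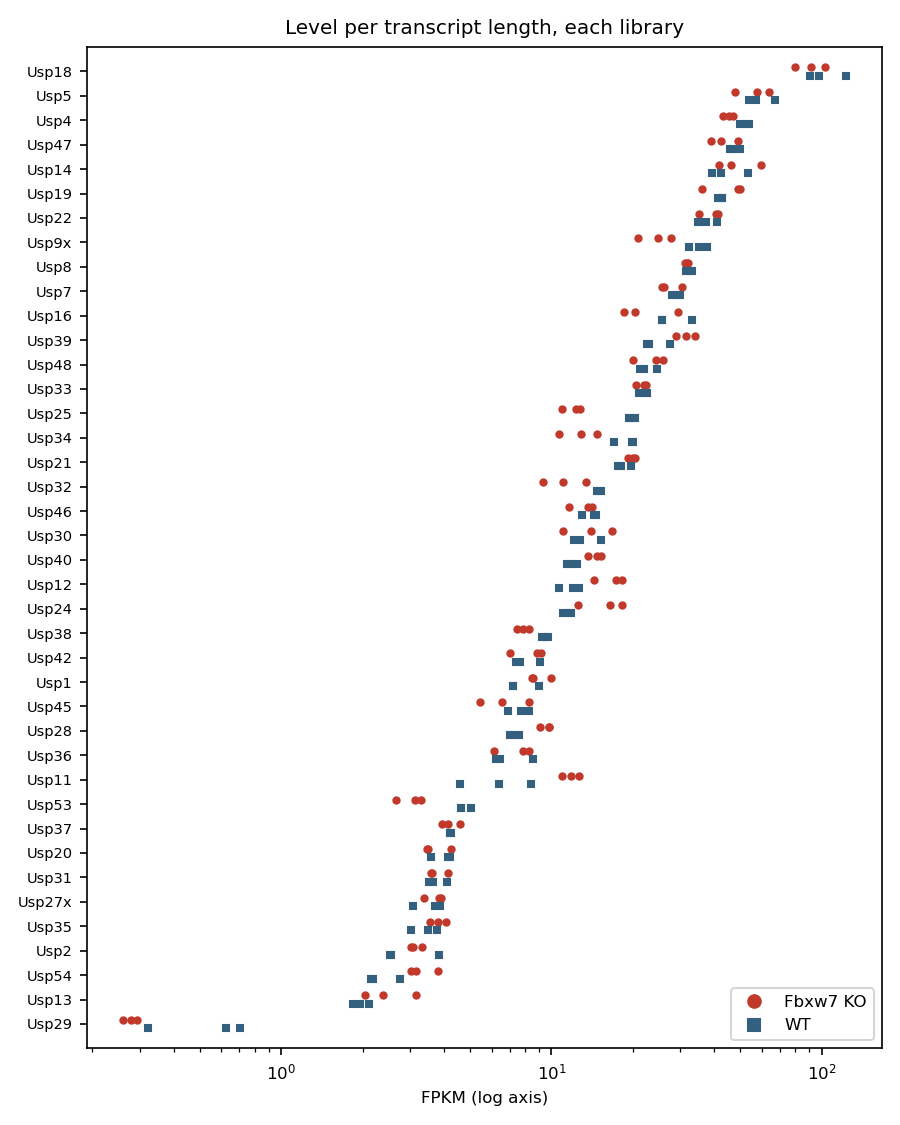
FPKM of the 40 tested USP genes with a locus of their own, in each library (log axis; KO red circles above, WT blue squares below in each row), ordered by WT mean. Levels run from under 1 FPKM for Usp29 to 91.2 FPKM in KO and 104 FPKM in WT for Usp18.

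Replicate 3 differed from the other replicates in several members. The labels do not say whether same-numbered replicates belong together, and they were not taken as pairs. A ratio in replicate 3 therefore sets a single KO library against a single WT library. The log2 ratio of KO to WT had the same sign in replicates 1 and 2 as in replicate 3 for 29 of the 44 members. No such share was computed over all loci. For the 9 that passed the same sign was bound to occur, since their groups do not overlap, and the ratio was smaller in replicate 3 for 6 of them. Usp34 had a log2 ratio of -0.76 in replicates 1 and 2 and -0.21 in replicate 3, and Usp39 had 0.54 and 0.15. The other 3 were larger in replicate 3: Usp11 had 0.78 in replicates 1 and 2 and 1.29 in replicate 3, Usp28 had 0.48 and 0.72, and Usp40 had 0.28 and 0.40. With replicate 3 of both genotypes left out, 21 members passed, 11 higher and 10 lower, where 41.3% of all loci did. When replicates 1 and 2 were added together within each genotype and counted as 1 sample, 0 members and 2.71% of all loci passed in edgeR's test. In that test 7 of the 44 members and 3174 of all 17865 loci had an unadjusted p under 0.05.

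**Figure D5:**
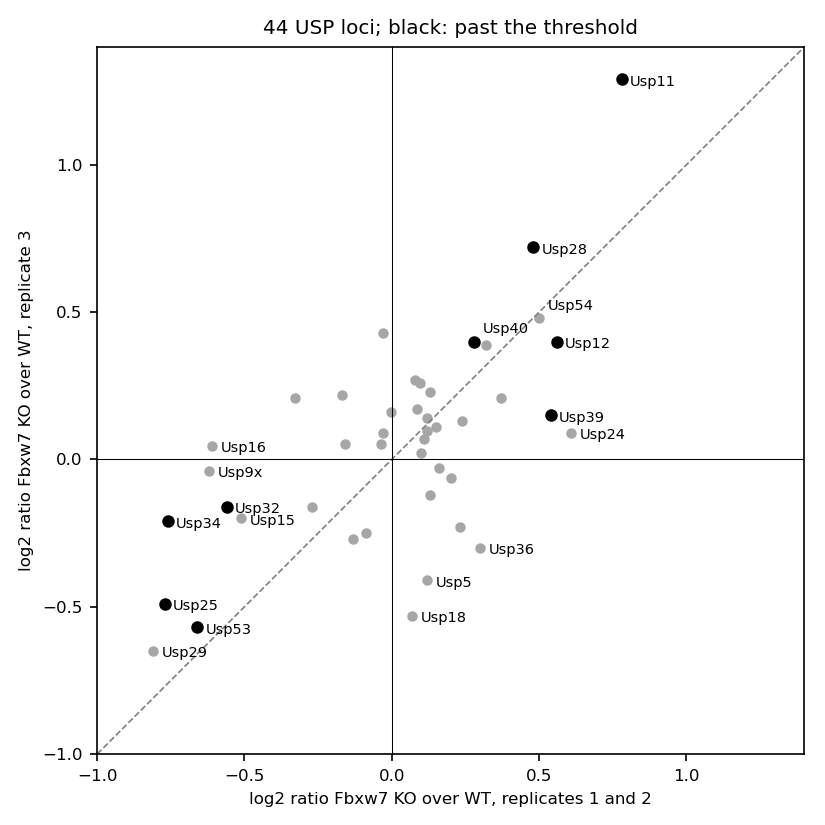
Log2 ratio of KO to WT of the 44 USP loci in replicates 1 and 2 (x axis) and in replicate 3 (y axis, a single library of each genotype). Black points passed the threshold and the dashed line marks equal values. Usp34, Usp32 and Usp39 lie nearer to 0 in replicate 3, and Usp11 and Usp28 farther from it.

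Non-overlap of the groups alone was common. In 17 of the 44 members (38.6%) no KO library reached the range of the WT libraries, 9 higher and 8 lower, and the same held for 37.7% of all loci tested. An unadjusted p under 0.05 was seen in 36.4% of members and 31.6% of all loci. Both shares are near the background of the whole table.

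Other families of deubiquitinases were set beside the USPs. Of 37 tested members of the JAMM, OTU, UCH, Josephin, MINDY and ZUFSP families and of USP-fold genes without a Usp number, 6 passed (16.2%), 4 higher and 2 lower, a share near the 16.1% of all loci. The median log2 fold change of these 37 was 0.041. Cyld, a USP-fold protease that trims linear and K63-linked chains in NF-kappaB signalling, averaged 37.4 ± 3.75 CPM in KO and 59.5 ± 8.74 CPM in WT and fell (log2 fold change -0.67 ± 0.13, adjusted p = 0.0138). Pan2, the USP-fold subunit of a deadenylase, fell as well (-0.40 ± 0.10, adjusted p = 0.0320). Tnfaip3 (A20), an OTU protease of the same pathway as Cyld, rose (0.54 ± 0.10, adjusted p = 0.0122), as did Otub2 (0.67 ± 0.14, adjusted p = 0.0175), the JAMM protease Stambpl1 (0.54 ± 0.11, adjusted p = 0.0160) and Uchl1 (0.86 ± 0.23, adjusted p = 0.0393). Of 10 genes on a list of USP cofactors, 1 passed: Atxn7l3b fell (-0.48 ± 0.089, adjusted p = 0.0114). Atxn7l3b is a paralog of the SAGA subunit that activates USP22, and not that subunit. The gene of the subunit itself, Atxn7l3, did not pass (-0.064 ± 0.13, adjusted p = 0.774). Of 19 FBXW7 substrates and partners tested, 1 passed: Klf5 fell (-1.42 ± 0.16, adjusted p = 0.00151). Myc, whose protein USP28 and FBXW7 act on in opposite ways, had 97.0, 85.7 and 77.7 CPM in KO libraries and 28.3, 29.6 and 68.3 CPM in WT libraries (log2 fold change 1.04 ± 0.33, adjusted p = 0.0669). The KO libraries of Myc were all higher, with WT replicate 3 near them.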

How the data were processed

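Per the labels' protocols, total RNA was extracted with Trizol, cleaned on a column and made into Illumina TruSeq libraries. Per the submitters' processing notes, TopHat2 2.1.1, SAMtools 1.5, deepTools and Cufflinks 2.2.1 were used on mm10; no source used here gives the annotation or the strand setting. The authors deposited estimated counts per locus and FPKM per locus, per the file headers. In each library 88.9% to 89.5% of the deposited counts up to 1000 came out as whole multiples of 1 step within a tolerance of 0.05, that is, the values had been scaled library by library. Loci without a name (1317) and those with skipped estimation (12, of which 9 had a name) were left out; 51997 remained, and no USP locus was affected.

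The design had assumed whole counts. The expected counts were therefore rounded. The test was the two-sided quasi-likelihood F test of edgeR 4.0.16 (R 4.3.3; robust fit on genotype alone, filterByExpr, TMM factors), with Benjamini-Hochberg adjustment over 16787 loci and a threshold of 0.05. The SE of a log2 fold change is its size divided by the square root of F. The rule for the members uses names only, but the family, the gene lists and the paralog pairs were chosen with earlier results of these data known. Named were all members past the threshold, Usp28 and Usp25 with all values, the other members by means, folds or ranges, and up to 3 passing genes per list, beside Fbxw7; Isg15, Irf7, Wdr48, Myc, the markers given singly and members of the deubiquitinase families beyond that were chosen after their values were seen. FPKM served for levels, and in limma 3.58.1 with a pseudocount of 1 or 0.1 as an alternative. DESeq2 1.42.0, other scalings and filters, a replicate block and left-out libraries were the other alternatives. Ratios within pairs were compared with exact permutation tests in SciPy 1.17.1. Fragments carry no molecular identifiers, so depth limits counting error only. Cys boxes were found by their motif in the reading frames of GENCODE M21 transcripts. Same-numbered replicates correlated at 0.0486, 0.149 and 0.111 in their deviations from the group means, and differently numbered ones at -0.178 to 0.13. The numbers were not taken as pairs, but these few values cannot exclude pairs.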

Additional observations from a re-analysis of the deposited data

How the results depend on the processing

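Of the 9 USP calls none changed sign in any of 21 alternatives. Usp25 passed in 20 of 21, Usp53 in 19 of 21, Usp28 in 18 of 21 and Usp11 in 16 of 20; the others passed in 7 to 14 of 21. The count of members called was 3 to 12 with 1 library left out (all loci: 1169 to 3282), 21 with replicate 3 of both genotypes left out (all loci: 6993), 0 with replicates 1 and 2 of each genotype summed (all loci: 484; that fit compares 2 samples with 2) and 1 with limma on log2(FPKM + 1) without a filter (all loci: 1182). Over all loci, limma at a mean FPKM of at least 1 called 1562 with a pseudocount of 1 and 1615 with 0.1. Without scaling factors the median over all loci was 0.105 on the log2 scale, against 0.007 with TMM, and 7 USP calls were higher and 2 lower, against 5 and 4. With the replicate block, 7 members passed, 4 higher and 3 lower, and 2356 loci in all; Usp54 and Usp29 were added and Usp34, Usp39, Usp32 and Usp40 lost. Not every same-numbered pair correlated above 0.1, and KO replicate 1 correlated best with WT replicate 2 (0.13). The numbers were therefore not taken as pairs, but correlations over 3 libraries per genotype cannot exclude pairs, and the labels do not say. The cause of the shifts in the count of calls was not tested. Every tested member had a deposited count of at least 38 in every library, and differences in Usp26, Usp43, Usp44 and Usp51 were not detectable at this depth.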
